A study of Ecsenius pulcher with 24 samples.

Results

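Skeletal muscle of the reef blenny Ecsenius pulcher contained 150 assembled transcript features whose level was higher in every fish of the post series than in any fish of the acute series. They were chosen from 518956 features by that separation. A feature had to average at least 5 CPM (the estimated count scaled to library depth) over the 12 post libraries, and its lowest post library had to lie above its highest of the 12 acute libraries. This held for 317 features, of which 0 were among the 100 most abundant ones set aside by the rule. Those 317 were ranked by L, the log2 of CPM plus 0.1, as the mean L of the post fish minus the mean L of the acute fish, and the first 150 are described here. The division of fish into hypoxic and control groups was not used. Hypoxia can therefore be tested on these features, whereas their post and acute levels can only be described. The rule still limits the shifts that can be seen. A feature lowered in post hypoxic fish or raised in acute hypoxic fish until the series overlapped was not taken. Nor was a feature raised only in post hypoxic fish, or lowered only in acute hypoxic fish, whose control group overlapped the other series. Shifts in either direction were therefore limited. Counts of called members hold only for features that stayed separated.

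Each library came from the muscle of a cross section at the front of the tail of a different fish, with the skin cut away. The 24 fish formed 4 groups of 6. Post hypoxic fish had been returned to normal oxygen and had recovered, and post control fish were never exposed and were sampled at the matching time. Acute hypoxic fish were taken while oxygen was low, and acute control fish were their unexposed, time-matched counterparts. The low-oxygen profile followed measurements on local reefs; the sources used here give neither its depth and length nor the hour of sampling or the age of the fish. A cross section also holds blood vessels, nerve, connective tissue and bone, and in such bulk tissue fewer cells of a type and less RNA per cell cannot be told apart.

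Oxygen around coral reefs falls at night, when respiration goes on without photosynthesis, and fish that shelter inside coral branches meet low oxygen regularly. In vertebrate cells low oxygen stabilises the HIF transcription factors, which raise transcripts for glycolysis, oxygen delivery and the feedback control of HIF itself. Muscle transcripts also follow the daily clock, feeding and handling, so an unexposed control taken at the same time is the usual baseline for an exposure. Each feature ID follows the Trinity naming scheme for genes assembled from reads alone. Its DN and c numbers together name a read cluster, here also called a component, and its g number names a gene within that. The IDs are not paired with gene names in the sources used here. The members are therefore given by rank, with the ID printed only for a few, and neither their function nor the labelled tissue could be checked against marker genes.

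Library totals were 31085706 to 43603403 estimated counts. The share of counts in the 10 most abundant features was 12.9% to 14.2% in post hypoxic fish, 9.58% to 16.8% in post controls, 10.7% to 27.0% in acute hypoxic fish and 14.5% to 30.9% in acute controls. Post libraries are named in a different style from acute libraries in the labels. Whether the 2 series were collected, extracted or sequenced separately is not stated in the sources used here. Any such difference between the series cannot be told apart from the time point. Over all 65664 features tested, the median of post minus acute mean L was 0.27 with CPM by column sum and -0.03 with TMM, the trimmed mean of M-values scaling of edgeR. Levels below are CPM by column sum unless TMM is named, whereas edgeR's fold changes and tests use TMM scaling.

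The members held 0.475% to 0.874% of all counts in post hypoxic fish and 0.458% to 1.01% in post controls. In acute hypoxic fish the same features held 0.0536% to 0.0804%, and in acute controls 0.0378% to 0.0886%. The median member averaged 25.5 CPM over the post libraries and 2.08 CPM over the acute libraries. Post minus acute mean L was 2.06 to 9.37 over the members, with a median of 3.07, and 2.76 with TMM scaling. At the end of the list, the member ranked 150 differed by 2.06 and the next feature, not taken, by 2.05. A further 227 features differed by at least as much as the last member but overlapped between the time points, and 64 were separated with as large a difference but averaged at most 4.70 CPM in post fish.

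Few members were absent from acute muscle. All 24 libraries had at least 1 count of 139 members, and 0 members were at 0 in all 12 acute libraries. Acute means were under 0.5 CPM for 16 members and under 1 CPM for 45, whereas 14 members averaged 10 CPM or more in acute fish. The sum over the 12 acute libraries was at most 30 counts for 2 members. "Switched on" therefore describes a small part of the list, and most members were transcripts present at both times at a higher level in post fish. The gap between the series was often narrow: the lowest post fish stood at a median of 1.88 times the highest acute fish, under 1.5 times for 54 members and at least 10 times for 13.

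**Figure D1:**
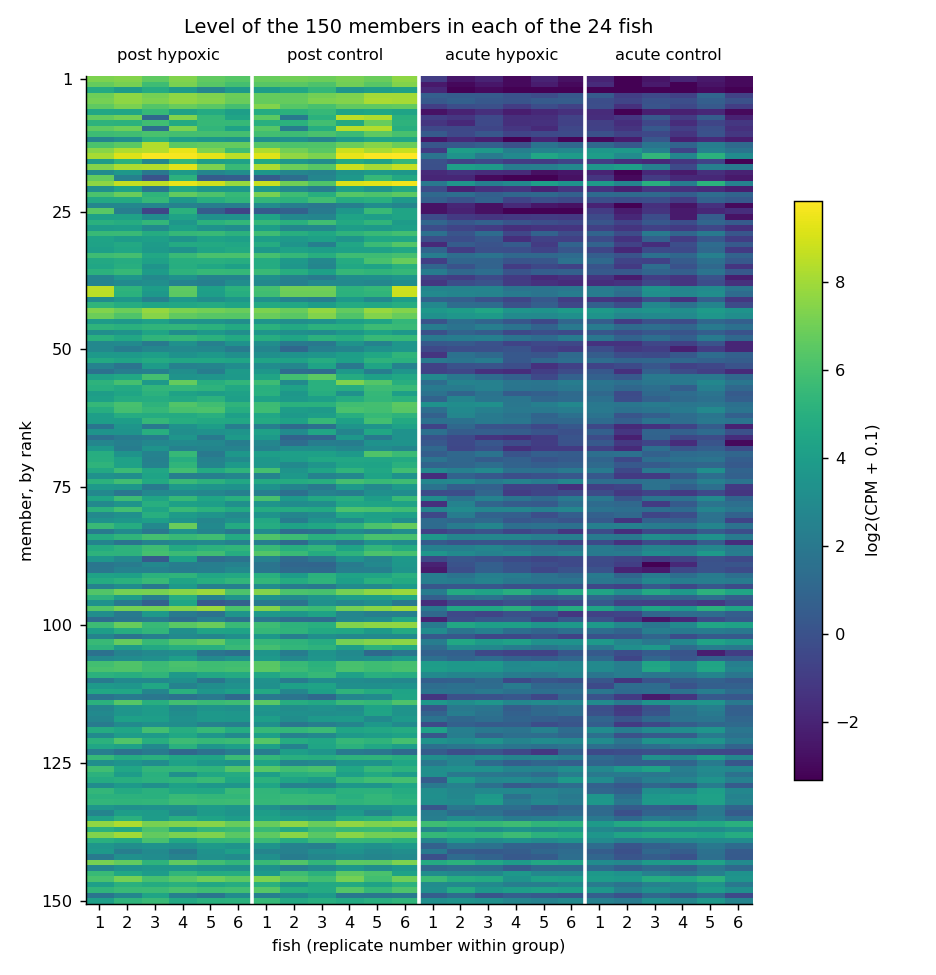
Heat map of log2(CPM + 0.1) for the 150 members (rows, by rank) in the 24 fish (columns, replicates 1 to 6 of the post hypoxic, post control, acute hypoxic and acute control groups). Every row is brighter in the 12 post fish than in the 12 acute fish, as the rule requires, and most rows are above the bottom of the scale in acute fish.

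The members ranked 1, 2 and 3 were near the detection limit in acute muscle. Those ranked 4, 5 and 6 had 462, 497 and 309 counts over the 12 acute libraries. TRINITY_DN35963_c0_g1, ranked 1, had 83.1, 126.3 and 170.7 CPM (lowest, median and highest of 6 fish) in post hypoxic fish and 112.9, 122.7 and 199.9 CPM in post controls. Its level was 0.0276, 0.108 and 0.423 CPM in acute hypoxic fish and 0, 0.0789 and 0.158 CPM in acute controls, on 51 counts over the 12 acute libraries. The lowest post fish was at 196 times the highest acute fish, and the hypoxic and control ranges overlapped at each time.

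TRINITY_DN280_c2_g1, ranked 2, had 55.3, 97.1 and 146.1 CPM in post hypoxic fish and 71.1, 89.1 and 166.3 CPM in post controls. Acute hypoxic fish had 0.0237, 0.05002 and 0.0981 CPM of it and acute controls 0, 0.0438 and 0.203 CPM, on 28 counts in all acute libraries together. The lowest post fish was at 272 times the highest acute fish, the widest gap among the 150 members. The member ranked 3 was lower throughout, at 6.44 to 27.3 CPM in post hypoxic fish and 12.1 to 42.2 CPM in post controls, and only 8 counts of it were found over the 12 acute libraries.

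Post fish differed from each other by several fold for most members. The highest post fish had a median of 3.78 times the level of the lowest, at least 2 times for 145 members, at least 10 times for 16 and at least 100 times for 4. The member ranked 132 was the steadiest, at 39.1 to 53.9 CPM in post hypoxic fish and 38.2 to 48.5 CPM in post controls. The member ranked 8 was the most variable, at 2.12 to 162.6 CPM in post hypoxic fish and 4.27 to 375.9 CPM in post controls. Within groups, the SD of L had a median of 0.61 over the members and 0.55 over the 21099 other features with a mean post CPM of at least 5 in post fish. In acute fish the medians were 0.62 and 0.50, at the members' lower acute levels.

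Fish differed in the mean L of all members, and that difference followed the scaling. It averaged 4.45 ± 0.18 in post hypoxic fish and 4.55 ± 0.38 in post controls (SD, n = 6 each), and 1.08 ± 0.25 in acute hypoxic fish and 0.90 ± 0.45 in acute controls. With TMM scaling the means were 4.28 ± 0.13 in post hypoxic fish and 4.41 ± 0.15 in post controls, 1.14 ± 0.16 in acute hypoxic fish and 1.14 ± 0.18 in acute controls. Thus the spread among control fish shrank by more than the spread among hypoxic fish, and the acute groups came to the same mean.

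Post control replicate 2 was the lowest post fish at 3.98 and post control replicate 6 the highest at 4.97, and their TMM factors were 0.814 and 1.38. On the TMM scale these fish stood at 4.29 and 4.52. By column sum, post control replicate 6 was the highest post fish for 36 of the 150 members, and post control replicate 3 the lowest for 36. With TMM scaling post control replicate 3 was instead the highest for 35. Among acute fish, acute control replicate 5 was the highest for 37 members and acute control replicate 2 the lowest for 61, against 16 and 22 with TMM scaling. On the TMM scale 140 of the 150 members still had every post fish above every acute fish.

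**Figure D2:**
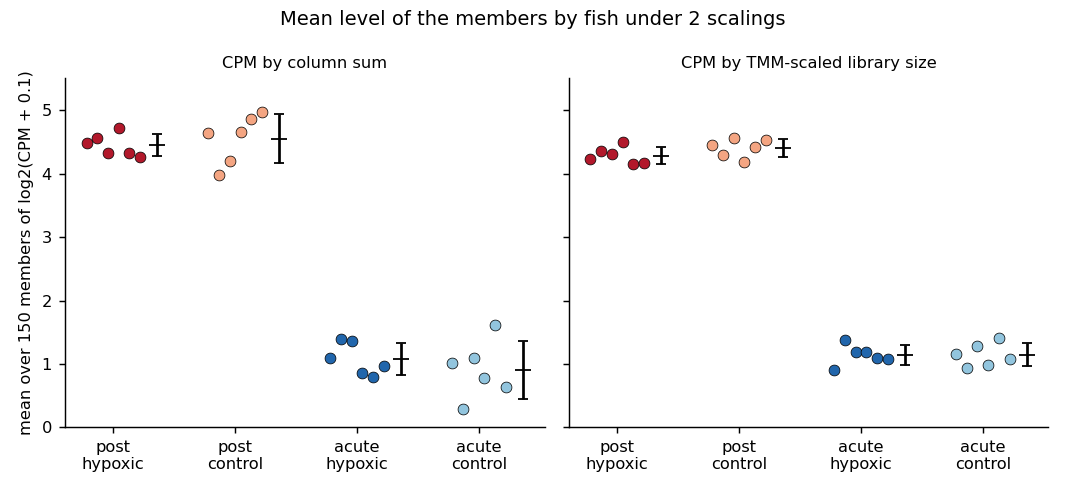
Mean of log2(CPM + 0.1) over the 150 members, 1 point per fish and with the group mean ± SD at the right of each group, for CPM by column sum (left) and by TMM-scaled library size (right). Post fish lie between 3.98 and 4.97 on the left and between 4.15 and 4.56 on the right, and acute fish stay under 1.62 in both.

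The first question is whether hypoxia shifted these features in recovered fish, within the separation that the rule required. None of the 150 members passed in post hypoxic against post control fish with edgeR's quasi-likelihood test at an adjusted p of 0.05 (0 of 150, smallest adjusted p 1.00, n = 6 fish per group). The background was 0% called, since 0 of all 65664 features passed. DESeq2 also called 0 members, where it called 0.0107% of all features, and limma voom called 0 members and 0% of all features. With no filter on low counts edgeR again called 0 members, against 0.259% of all features. At an unadjusted p of 0.05 there were 0 members higher, where 1.4% of all features were, and 2 lower, where 2.43% of all features were. Together these were 1.33% of the members, against 3.84% of all features. The count of 2 was 5 without post control replicate 1, or 3.33% of the members against 4.48% of all features. It was 4, or 2.67%, without post control replicate 4, against 4.84% of all features. Without post hypoxic replicate 3 it was also 4, or 2.67%, against 5.68%. Without post hypoxic replicate 6 it was 1, or 0.667%, against 3.56%. The median log2 fold change of the members was -0.06, against -0.01 over all features tested, with 58 above 0 and 92 below. The share of all features above 0 is not given here, so these counts have no background. Lower and upper quartiles were -0.22 and 0.06 for the members and -0.27 and 0.19 over all features. Standard errors had a median of 0.33, and changes well above that size in a single member could be missed with 6 fish per group. In the acute contrast below, a log2 fold change of 0.76 with SE 0.21 did not pass (edgeR, adjusted p 0.746).

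In both members with an unadjusted p under 0.05 in this contrast, the highest post fish was a control. TRINITY_DN17749_c0_g2, ranked 123, had 2.11, 3.67 and 4.83 CPM in post hypoxic fish and 2.23, 4.33 and 16.6 CPM in post controls. Its log2 fold change was -1.23 (SE 0.46, edgeR unadjusted p 0.0135, adjusted p 1.00), and -0.66 without post control replicate 2, the fish at 16.6 CPM. With a replicate block it was -0.66, and limma voom with quality weights gave -0.19.

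TRINITY_DN6847_c0_g1, ranked 113, had 2.16, 3.44 and 4.13 CPM in post hypoxic fish and 2.18, 5.16 and 20.8 CPM in post controls. The log2 fold change of -1.01 (SE 0.46, edgeR unadjusted p 0.0364, adjusted p 1.00) was -0.47 without post control replicate 6, the fish at 20.8 CPM. For rank 123 the next fish was also a control, post control replicate 3. For rank 113 there were 3 controls above every hypoxic fish, replicates 4, 5 and 6. For both features the hypoxic range by column sum lay almost wholly inside the control range.

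The positive shifts with the smallest p were small. The largest positive log2 fold change was 0.79 (SE 0.85), for the member ranked 19. TRINITY_DN4124_c0_g2, ranked 133, had 9.55, 11.0 and 14.9 CPM in post hypoxic fish and 4.36, 10.6 and 13.4 CPM in post controls, with log2 fold change 0.37 and SE 0.26 (edgeR, adjusted p 1.00). TRINITY_DN1004_c0_g1, ranked 140, had 8.88, 10.9 and 14.7 CPM in post hypoxic fish and 5.14, 10.4 and 14.05 CPM in post controls. Its log2 fold change was 0.26 (SE 0.21, edgeR adjusted p 1.00). In both the medians of the groups were close and the ranges overlapped.

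**Figure D3:**
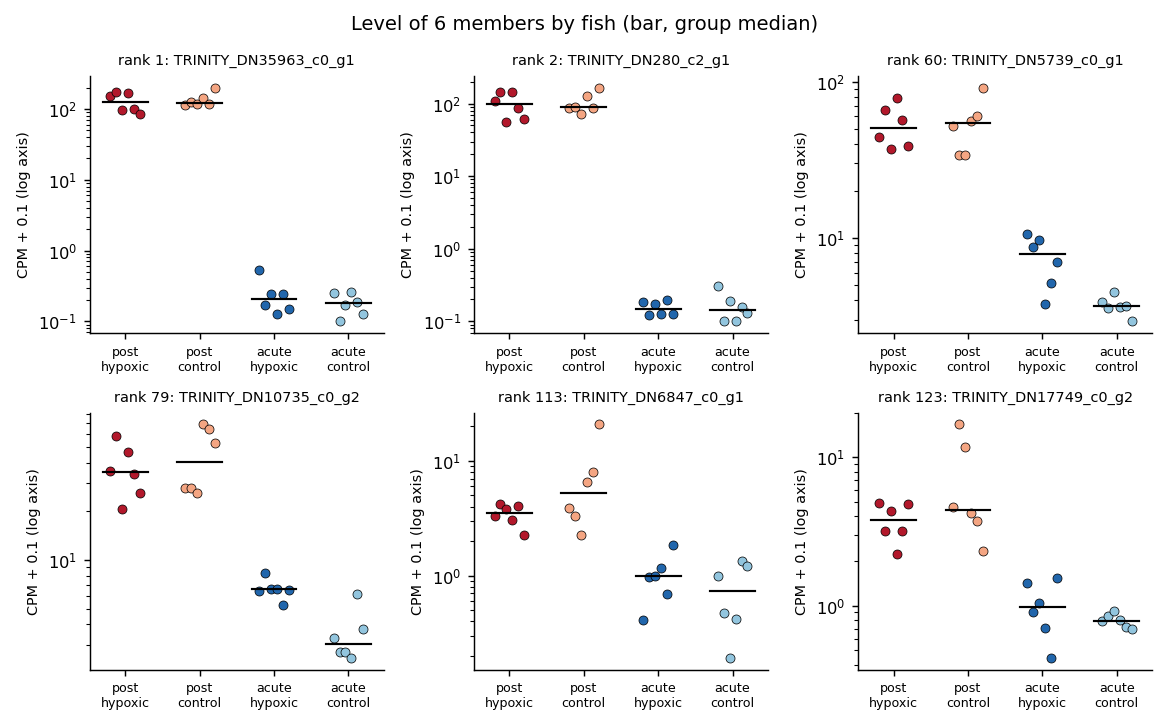
CPM + 0.1 on a log axis for 6 members, 1 point per fish, with bars at the group medians. Ranks 1 and 2 differ by more than 100 times between the post and acute fish. Ranks 60 and 79 are higher in most acute hypoxic fish than in acute controls. In ranks 113 and 123 the post controls reach 20.8 and 16.6 CPM, above every post hypoxic fish.

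During low oxygen the members did not pass either. The count was 0 of 150 for acute hypoxic against acute control fish (edgeR, smallest adjusted p 0.746, n = 6 fish per group), where 0.0213% of all features were called, and 0 members were among the 14 features behind that percentage. DESeq2 called 0 members, where it called 0.104% of all features, and limma voom 0, where it called 0.177%. At an unadjusted p of 0.05 there were 8 members higher, where 2.21% of all features were, and 5 lower, where 1.39% of all features were. Together these were 8.67% of the members, against 3.6% of all features. At the same limit DESeq2 gave 19 members, or 12.7%, against 4.42% of all features, and limma voom gave 16, or 10.7%, against 9.59%. The edgeR count of 13 was 21 without acute hypoxic replicate 1, or 14% of the members against 5.68% of all features. Without acute hypoxic replicate 2 it was 8, or 5.33%, against 3.00%. The median log2 fold change was -0.02, against 0.02 over all features tested, with 72 members above 0 and 78 below, and the median standard error was 0.35. Here too the share of all features above 0 is not given. With no filter on low counts 4 members were called, or 2.67%, against 0.198% of all features in that fit. They were ranked 12, 15, 20 and 25, all lower in acute hypoxic fish. Their fold changes barely differed between the fits, while their standard errors were smaller without the filter: rank 25 had a log2 fold change of -2.50 and SE of 0.48 without it, and of -2.52 and 1.45 with it.

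TRINITY_DN5739_c0_g1, ranked 60, had 3.67, 7.81 and 10.6 CPM in acute hypoxic fish and 2.83, 3.55 and 4.38 CPM in acute controls. The log2 fold change was 0.76 (SE 0.21, edgeR unadjusted p 0.00143, adjusted p 0.746). In recovered fish it was 0.01 (SE 0.21), with 36.9 to 78.8 CPM in post hypoxic fish and 33.7 to 91.6 CPM in post controls. Of the 6 acute hypoxic fish, 1 lay inside the control range.

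TRINITY_DN10735_c0_g2, ranked 79, had 5.20, 6.47 and 8.24 CPM in acute hypoxic fish and 2.38, 2.91 and 6.05 CPM in acute controls, with acute control replicate 5 at 6.05 CPM. On the TMM scale the groups did not overlap, with the lowest hypoxic fish at 5.47 CPM and the highest control at 5.18 CPM. The log2 fold change was 0.78 (SE 0.23, edgeR unadjusted p 0.00228, adjusted p 0.832), and -0.23 (SE 0.22) in recovered fish. The difference between those effects, post minus acute, was -1.003 (SE 0.32, edgeR unadjusted p 0.00434, adjusted p 1.00), the smallest p for that difference among the members. The other feature of its component is the member ranked 5, which had an acute log2 fold change of 0.35 (SE 0.23).

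The members ranked 131 and 132 pointed the other way. TRINITY_DN5018_c0_g1, ranked 131, had 3.03, 6.22 and 13.5 CPM in acute hypoxic fish and 2.81, 12.3 and 18.3 CPM in acute controls, with log2 fold change -0.83 and SE 0.31 (edgeR, adjusted p 1.00). TRINITY_DN1674_c0_g1, ranked 132, had 4.52, 7.44 and 15.9 CPM in acute hypoxic fish and 3.71, 13.4 and 18.4 CPM in acute controls, with log2 fold change -0.68 and SE 0.27 (edgeR, adjusted p 1.00). By column sum acute control replicate 2 was the lowest control for both and lay below every hypoxic fish. This turned with TMM scaling, where the lowest hypoxic fish had 3.92 CPM of rank 131 and the lowest control 4.76 CPM. For rank 132 the lowest hypoxic fish had 5.03 CPM on that scale and the lowest control 6.30 CPM.

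Hypoxic and control groups overlapped for nearly all members, as they did for nearly all features tested. By column sum 1 member, or 0.667%, had every acute hypoxic fish above every acute control, against 0.327% of all features. With TMM scaling 3 members had, or 2% of the members, against 0.213% of all features. In the opposite direction there were 0, against 0.0244% by column sum and 0.108% with TMM. Among post fish 0 members were apart in either direction under either scaling; over all features the shares were 0.0244% above and 0.0426% below by column sum, and 0.032% above and 0.0472% below with TMM. For the difference of the hypoxia effects between the time points 0 members passed (edgeR, smallest adjusted p 1.00, background 0%), and DESeq2 and limma voom also called 0, where they called 0.0213% and 0% of all features. At an unadjusted p of 0.05 there were 6 members, or 4.00% of the members, against 3.5% of all features. Without acute hypoxic replicate 1 there were 11, or 7.33%, against 4.80%. With no filter on low counts 3 members were called, or 2.00%, against 0.188% of all features in that fit, ranked 15, 19 and 25.

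**Figure D4:**
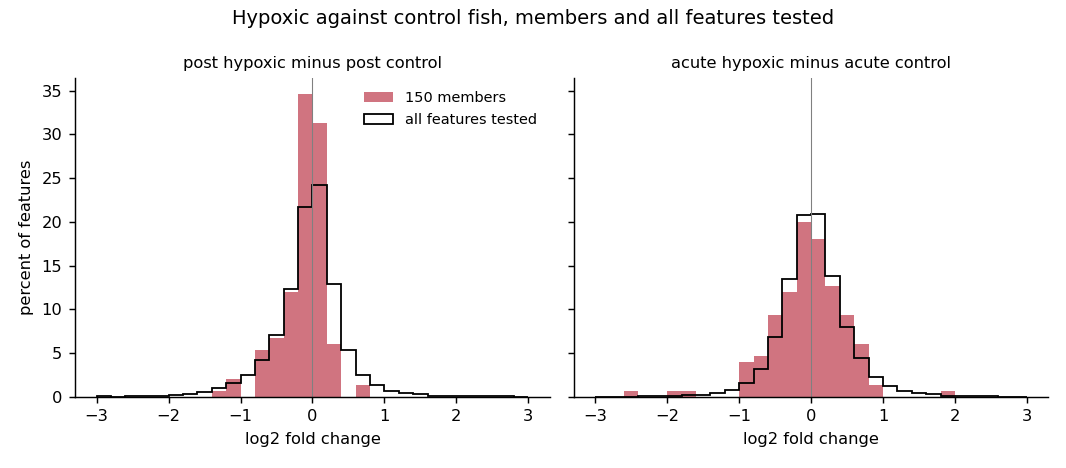
Distribution of log2 fold changes in bins of log2 fold change, as percent of features, for the 150 members (filled) and all 65664 features tested (line; values beyond ±3 are not drawn). In post hypoxic against post control fish the members' median is -0.06 and in acute hypoxic against acute control fish -0.02, close to the medians of all features at -0.01 and 0.02.

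In exposed and unexposed fish alike, each of the 150 members passed for post against acute fish. This follows from the rule, and nothing is read from it: 2.62% of all features were called higher in post hypoxic than in acute hypoxic fish, and 4.08% in post control than in acute control fish (edgeR, TMM scaling). The members' log2 fold changes had a median of 2.76 between the hypoxic groups and 2.93 between the control groups.

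Some members rose and fell together across fish so closely that their ratio was almost constant. The 98 members with an SD of L of at least 0.5 over the post fish formed 4753 pairs. Of those, 8 pairs kept a log2 ratio with an SD under 0.15, where the median pair had 0.97. The share of equally close pairs among other features is not given here, so the 8 pairs have no background. These pairs were picked on the post fish after their values were seen, and 5 of the 8 joined features of different read clusters. The members ranked 14 and 17 came from different read clusters. In post hypoxic fish they ran from 55.4 to 685.7 CPM and from 49.3 to 642.7 CPM, and in post controls from 88.7 to 467.1 CPM and from 86.1 to 445.6 CPM. Their ratio, here and below of CPM plus 0.1, stayed between 1.03 and 1.12 in all 12 post fish. In the acute fish, which were not used to pick the pair, it stayed between 0.508 and 1.22 while the level of rank 14 ran from 0.367 to 16.7 CPM in hypoxic fish and from 0.539 to 14.1 CPM in controls.

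The members ranked 39 and 40, also of different read clusters, were set apart by 2 fish. Rank 39 was at 377.3 CPM in post hypoxic replicate 1 and at 470.8 CPM in post control replicate 6. The other post hypoxic fish had 15.9 to 94.9 CPM and the other post controls 36.9 to 129.7 CPM. Rank 40 followed it with a ratio of 1.01 to 1.22 in post fish and 0.773 to 1.37 in acute fish.

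The members ranked 114 and 121, from different read clusters, varied less. Rank 114 had 30.98 to 82.5 CPM in post hypoxic fish and 24.3 to 89.6 CPM in post controls, and rank 121 had 30.3 to 78.4 CPM in post hypoxic fish and 23.4 to 83.3 CPM in post controls. Their ratio was 1.02 to 1.16 in post fish and 0.855 to 1.19 in acute fish.

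Ranks 8 and 10 are genes of 1 component. Their ratio was 0.832 to 1.14 in post fish and 0.564 to 1.54 in acute fish. Post hypoxic replicate 3 was the lowest post fish for both, at 2.12 and 2.57 CPM. Post control replicate 4 was the highest, at 375.9 and 353.7 CPM. Ranks 19 and 25, from different read clusters, were not among the 8 pairs, as their ratio ran from 0.975 to 2.46 over post fish. They spanned 0.933 to 106.1 CPM and 0.519 to 90.2 CPM in post hypoxic fish, highest in replicate 1 for both. In post controls they spanned 1.33 to 46.2 CPM and 1.24 to 47.4 CPM. Such variable features shared the list with steady ones because the rule asked only that the lowest post fish exceed the highest acute fish, which for rank 25 it did by 1.28 times.

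**Figure D5:**
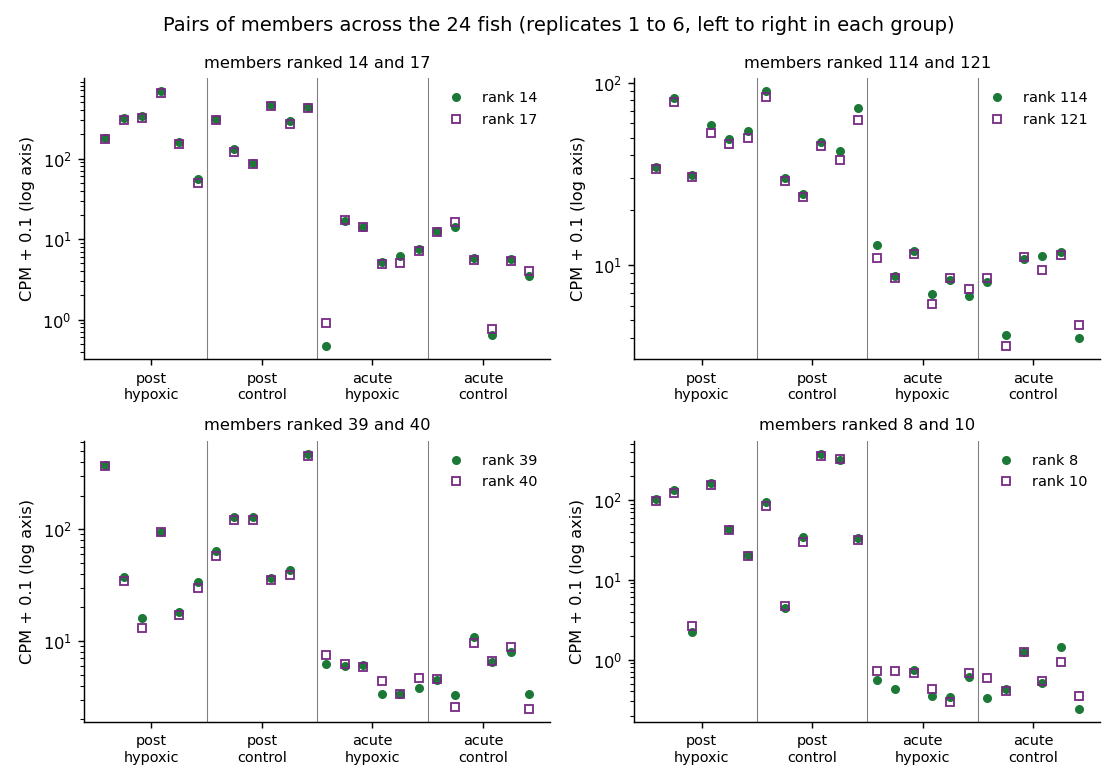
CPM + 0.1 on a log axis for 4 pairs of members in the 24 fish, with replicates 1 to 6 from left to right in the post hypoxic, post control, acute hypoxic and acute control groups. Filled circles and open squares nearly coincide in post fish, with ratios of 0.832 to 1.22, although the levels differ by 3.68 to 177 times between the highest and lowest post fish for the filled circles.

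The 150 members came from 135 assembly components with 129 different DN numbers, and 15 components held 2 members each. Another 58 features belonged to the members' components. Of these, 31 averaged at least 1 CPM over all fish, 29 of them with a higher mean L in post fish and 2 with a lower one, and 5 had every post fish above every acute fish while 0 had every post fish below. Their median post minus acute difference was 0.65, against 0.27 over all features tested. The shares of all features averaging at least 1 CPM that were higher or separated are not given here, so these counts have no matched background. At a different minimum, a mean post CPM of at least 5, 317 of 21249 features had every post fish above every acute fish. When estimated counts were summed over each component, 123 of the 135 components had every post fish above every acute fish, and the summed difference was under 1 for 3. For 82 members the component held no other feature, so the sum was the member itself and its separation was fixed by the rule. Components made up only of members were separated for the same reason. The count of 123 is therefore mostly set by the rule.

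Where reads fit several features, the authors' counting can split them. Values that were not whole (by more than 0.001) occurred in at least 1 library for 71 members, or 47.3%, and for 43.5% of the other features with a mean post CPM of at least 5. In 9 members at least 10 libraries had such values. The levels of those 71 members may be less certain than those of the 79 members with whole values throughout, but this was not tested.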

How the data were processed

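The authors deposited a table of estimated counts for 518956 features in 24 columns, 1 per fish, not scaled between libraries, per the file headers. Per the submitters' processing notes, kallisto, RSEM and Trimmomatic were among the tools; tool versions and details of the assembly were not stated in the sources used here. In 1 library every value was whole. Groups and replicate numbers came from the sample titles. CPM divided estimated counts by the column sum. For tests, estimated counts were rounded, filtered with filterByExpr of edgeR 4.0.16 (minimum count 10, minimum total 15), which kept 65664 features and all 150 members, scaled by TMM factors and fitted with 4 group means in the quasi-likelihood model. Benjamini-Hochberg adjustment covered every feature in the fit. The standard error (SE) is the size of the log2 fold change over the root of its F statistic. The fit was also run on simulated data, but its recovery there is not given here and nothing is read from it. DESeq2 1.42.0 and limma 3.58.1 were alternatives. Intervals of counting error were not used, and no molecular identifiers are named, so reads may repeat a molecule. The members, comparisons and alternatives were chosen with earlier results of these data known. IDs printed are the members ranked 1 and 2 and, in the acute and the post contrast, the 2 with the smallest p in each direction; other members singled out by rank, and the pairs, were chosen after their values were seen. Cell type marker lists were not used.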

Additional observations from a re-analysis of the deposited data

Results flagged for a closer look

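A fish stood far from the other 5 of its group in 12 of 92 group values examined, by Dixon's ratio. Its limit is set for about 1 in 20 by chance in normally distributed values, which CPM need not be. Some of the members examined were chosen after their values were seen, so 12 of 92 cannot be set against that rate. Many of these values share a fish or a pair of members that track each other. Post hypoxic replicate 1 was high for the members ranked 19, 25, 39 and 40, at 106.1, 90.2, 377.3 and 366.1 CPM, against at most 35.8, 33.9, 94.9 and 93.9 CPM in the other post hypoxic fish. Post control replicate 6 was high for the members ranked 1, 113, 39 and 40, at 199.9, 20.8, 470.8 and 454.1 CPM, against at most 142.0, 7.94, 129.7 and 120.1 CPM in the other post controls. Acute hypoxic replicate 1 had 0.423 CPM of the member ranked 1 and 0.169 CPM of the member ranked 3, against at most 0.147 and 0.0242 CPM in the other acute hypoxic fish. Acute control replicate 5 had 6.05 CPM of the member ranked 79, against at most 3.62 CPM in the other acute controls, and 0.0297 CPM of the member ranked 3, which was at 0 in the other acute controls.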

How the results depend on the processing

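Without a filter on low counts, 4 members were called in the acute contrast and 3 for the difference of the hypoxia effects, against 0 with the filter; the cause was not tested. In every other alternative run (DESeq2, its size factors in edgeR, limma voom, and each of the 24 libraries left out) 0 members were called in each of the 3 contrasts, and so in the acute and post contrasts with only the 12 libraries of the time point, which tested 141 members in the acute one. A replicate block also gave 0 in each; same-numbered fish were not taken as pairs, since 1 of 6 acute pairs (-0.264 to 0.134) and 3 of 6 post pairs (-0.158 to 0.433) correlated over 0.1, and 1 and 2 of them correlated best with their own number. Leaving out libraries gave median log2 fold changes of -0.06 to 0.03 (acute) and -0.12 to -0.01 (post). The 8 members named for a hypoxia contrast kept their direction in it in each fit that tested them. The rule shared 136 of 150 features with TMM scaling, 139 with a pseudocount of 1 and 147 with 0.01. With minimum means of 2 and 10 CPM it shared 122 and 116. Dropping no abundant features gave 150, which was fixed in advance, since 0 separated features were among the 100 most abundant. On component sums it shared 121 of 135 components, where 82 members stood alone in their component and kept their own values. Leaving out libraries gave 134 (without acute hypoxic replicate 1) to 149, and leaving a library out cannot undo a member's separation. Chosen after seeing the data, a pseudocount of 1 moved the median post minus acute difference of 3.07 to 2.55, since it damps low acute values; leaving out libraries gave 2.99 to 3.14. Members with few acute counts have the least certain folds.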
